A study of Mus musculus with 8 samples.

Results

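DNA replication genes were compared between mouse oligodendrocyte progenitor cells (OPCs) and oligodendrocytes (OLs). The genes are 55 named members of the replication machinery, chosen by symbol: origin recognition and licensing factors, the replicative helicase, the kinases and cyclins of S phase, primase and the DNA polymerases, the sliding clamp with its loader, single-stranded DNA binding proteins, factors that mature the lagging strand, enzymes that supply deoxynucleotides, and proteins that rebuild chromatin behind the fork. Of these, 46 are among the 10982 gene symbols of the deposited FPKM values. The other 9 (Orc6, Mcm5, Gins3, Gins4, Cdk2, Pola2, Pole2, Lig1 and Chaf1a) were not analysed here.

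DNA replication begins when the origin recognition complex, Cdc6 and Cdt1 load the ring-shaped Mcm helicase on DNA in G1, and when S-phase kinases then recruit Cdc45 and the GINS complex to switch that helicase on. Primase and DNA polymerase alpha start each new strand, polymerases delta and epsilon extend it while held by the Pcna clamp, and the products are wrapped on new histones. OPCs are cycling glial progenitors, and OLs, the myelin-forming cells made from them, have left the cell cycle.

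The series holds 8 libraries, 4 of ribosome footprints and 4 of total RNA, from 2 OPC cultures and 2 OL cultures of the strain 129S/SvEv. OPCs, made from epiblast stem cells of male mouse embryos, were kept in medium with the mitogens bFGF and PDGFA. OLs were derived from the corresponding OPC replicates, taken here as those of the same number. Their medium held T3, noggin, IGF-1, cyclic AMP and NT3. Cells bound for OL were first passaged without bFGF, and OL dishes were seeded with more cells than OPC dishes. Cultures of both cell types were collected after 3 days, and plates of a cell type were lysed together, so each library is a pool of plates. Cell type, medium, passage and seeding density changed together and cannot be told apart. The OL cultures are bulk cultures that still hold undifferentiated cells by the study's own account.

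All values are FPKM, fragments scaled to feature length and to the number of mapped reads, with RNA-seq taken over the transcript and footprints over its coding sequence. Read counts were not analysed here. Steps between the lowest FPKM put the depth at 77.9 to 249.2 megabases aligned in a library, or a whole multiple of that. The multiple can differ between libraries, so their order in depth is not fixed. OL replicate 2 had the largest share of transcripts listed at 0 in each kind, 18.2% in RNA-seq and 31.1% in footprints. In that culture's footprint library, 172 of the 4803 transcripts with at least 10 FPKM in each of the other 3 footprint libraries were listed at 0 (3.58%), against 0 to 3 in the other footprint libraries, and footprint results are therefore also given without this culture. In such fits the OPC pair alone sets the spread, and the lone OL library is assumed to vary like it. All 7 of the OL markers that were listed rose in RNA-seq and in footprints, among them Cnp, an enzyme of myelin, at 27.1 and 28 FPKM in OPC and 1325 and 1118 FPKM in OL RNA-seq. Of the 5 listed genes that were taken as OPC markers, 4 were also higher in OL, and none was lower. Pdgfra, the PDGFA receptor, was at 53.5 and 31.3 FPKM in OPC and 105 and 101 FPKM in OL. Gpr17 and Neu4, also among the 4, were at 8.38 and 4.91 and at 0.422 and 0.15 FPKM in OPC. In OL they were at 221 and 271 and at 27.6 and 32.2 FPKM, so neither marks OPC in these cultures. Mbp, Cspg4 and Mki67 were not analysed here.

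The promoters of the replication genes are shown first, because E2F transcription factors are textbook regulators of this gene class and bind a short GC-rich element. RefSeq promoter sequences (GRCm38.p6, 250 bases before to 50 bases after a start site) were found for 37 of the 46 genes, in 45 promoters. Gmnn, Mcm4, Gins1, Gins2, Ccne2, Ccna2, Prim2, Rfc2 and Pole had none. The E2F-type words TTTCCCGC, TTTGGCGC, TTTCGCGC and TTTGCCGC were searched on both strands. At least 1 of them was present in 12 of the 45 promoters (26.7%), beside 3.69% of the 11305 promoters of listed genes and 2.26% of all 32851 promoters. The 12 promoters belong to Orc1, Orc3, Cdc6, Cdt1, Mcm3, Mcm6, Mcm7, Pola1, Pold1, Pold3, Rfc3 and Uhrf1. Of their 17 motifs, 11 are centred within 50 bases of the start site, a share that was not counted for other promoters. The sequences end 50 bases after the start, so every motif after it falls in that count. At least 2 motifs are held by 4 of the 45 promoters (8.89%, against 0.159% for listed genes). The 4 promoters with at least 2 motifs follow, each written 5′ to 3′ along the strand of its gene with the motifs of either strand in capitals. The promoter of Orc3, a gene that passed the tests given below in neither assay, is set beside them. The promoters of Orc4 and Orc5, which also passed in neither, hold none of these words.
Mcm3, chr1:20820263-20820562, minus strand: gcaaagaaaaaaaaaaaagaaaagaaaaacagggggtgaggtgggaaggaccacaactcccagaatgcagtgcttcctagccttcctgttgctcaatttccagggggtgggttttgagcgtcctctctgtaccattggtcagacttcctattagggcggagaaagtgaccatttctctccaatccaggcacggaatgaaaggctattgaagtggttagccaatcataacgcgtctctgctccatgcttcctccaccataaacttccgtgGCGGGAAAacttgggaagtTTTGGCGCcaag
Mcm6, chr1:128359656-128359955, minus strand: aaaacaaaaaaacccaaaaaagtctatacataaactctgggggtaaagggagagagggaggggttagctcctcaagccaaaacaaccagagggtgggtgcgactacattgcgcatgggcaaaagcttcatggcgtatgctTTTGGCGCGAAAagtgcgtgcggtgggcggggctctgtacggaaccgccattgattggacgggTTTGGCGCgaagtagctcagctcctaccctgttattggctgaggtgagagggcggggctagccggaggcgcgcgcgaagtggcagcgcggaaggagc
Mcm7, chr5:138171834-138172133, minus strand: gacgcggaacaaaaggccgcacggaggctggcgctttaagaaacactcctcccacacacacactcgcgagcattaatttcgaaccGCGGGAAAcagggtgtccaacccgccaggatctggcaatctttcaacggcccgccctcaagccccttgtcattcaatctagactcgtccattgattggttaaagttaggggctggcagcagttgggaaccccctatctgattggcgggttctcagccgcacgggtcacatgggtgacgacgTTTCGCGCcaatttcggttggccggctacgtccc
Rfc3, chr5:151651159-151651458, minus strand: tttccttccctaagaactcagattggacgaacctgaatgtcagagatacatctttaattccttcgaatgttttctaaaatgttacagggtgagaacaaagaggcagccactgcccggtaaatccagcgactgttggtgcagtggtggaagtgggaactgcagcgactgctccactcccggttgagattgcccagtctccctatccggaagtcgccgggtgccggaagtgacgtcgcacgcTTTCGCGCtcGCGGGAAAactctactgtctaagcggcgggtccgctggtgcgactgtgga
Orc3, chr4:34614893-34615192, minus strand: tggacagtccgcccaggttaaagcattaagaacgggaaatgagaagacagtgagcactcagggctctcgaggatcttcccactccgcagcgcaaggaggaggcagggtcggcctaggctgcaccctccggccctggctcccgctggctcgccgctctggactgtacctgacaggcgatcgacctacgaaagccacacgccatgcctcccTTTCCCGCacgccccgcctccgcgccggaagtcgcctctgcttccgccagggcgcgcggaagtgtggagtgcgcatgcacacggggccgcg
The first 2 motifs of Mcm6 overlap each other, and in Mcm7 the motif nearest the start overlaps a CCAAT word. CCAAT, searched on both strands, was present in 24 of the 45 promoters (53.3%, against 38.2% for listed genes), and TATAAA in 3 (6.67%, against 7.72%). These are matches of letters, not measured binding sites.

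Transcripts of the replication machinery were lower in OL almost throughout. In RNA-seq 42 of the 46 genes fell, and none rose, at an adjusted p under 0.05 (limma with a variance trend on log2(FPKM + 0.1), Benjamini-Hochberg over 8346 transcripts), where 20.2% of all tested transcripts fell and 13.0% rose. Their median log2 fold change was -2.21, beside -0.23 for all tested transcripts. The mean OL level was a median of 22.3% of the OPC level, against 85.7% over all transcripts, and 27 of the 46 genes were under 25%. Both OL libraries lay below both OPC libraries for 44 of the genes, which was so for 44.2% of all tested transcripts. Summed over the 46 genes, RNA-seq gave 1842 and 2020 FPKM in OPC and 492 and 488 FPKM in OL, or 0.587% and 0.649% of all listed FPKM in OPC and 0.177% and 0.183% in OL. In bulk cultures, fewer cells that hold a transcript and less of it in each cell cannot be told apart.

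Footprints of the replication genes were lower in OL as well, with fewer calls. Of the 46 genes, 34 fell in footprints and none rose by the same test over 8342 transcripts, where 10.8% of all tested transcripts fell and 12.8% rose. The median log2 fold change was -2.54, beside -0.16 for all, and the OL level was a median of 17.2% of the OPC level, against 92.5%. Both OL libraries lay below both OPC libraries for 44 genes, beside 37.9% of all tested transcripts. Both assays called 33 genes, RNA-seq alone called 9 (Orc2, Cdc6, Mcm10, Cdc45, Cdc7, Ccne1, Prim2, Pold3 and Tk1), footprints alone called Gins2, and neither called Orc3, Orc4 or Orc5. Without OL replicate 2, the median log2 fold change of the 46 genes in footprints was -2.28, beside 0.07 for all tested transcripts. Then Cdt1, Gmnn, Dbf4, Pola1, Prim1, Pole, Rfc1, Rpa1 and Rpa3 no longer passed, and Mcm10, Cdc45, Ccne1 and Tk1 came to pass. That fit holds no spread between OL cultures.

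With 2 cultures in each group an exact two-sided permutation test of a single gene cannot give a p below 0.333, and the calls rest on the spread that limma shares across transcripts. They depended on which cultures set that spread. Without OPC replicate 1, 15 genes were called lower in RNA-seq and 0 in footprints, and without OPC replicate 2, 9 and 0, while the medians stayed between -2.07 and -2.29 in RNA-seq and were -2.57 and -2.58 in footprints. In those footprint fits 0 of all transcripts were called, and 26 of the 46 genes had an unadjusted p under 0.05 in each.

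**Figure D1:**
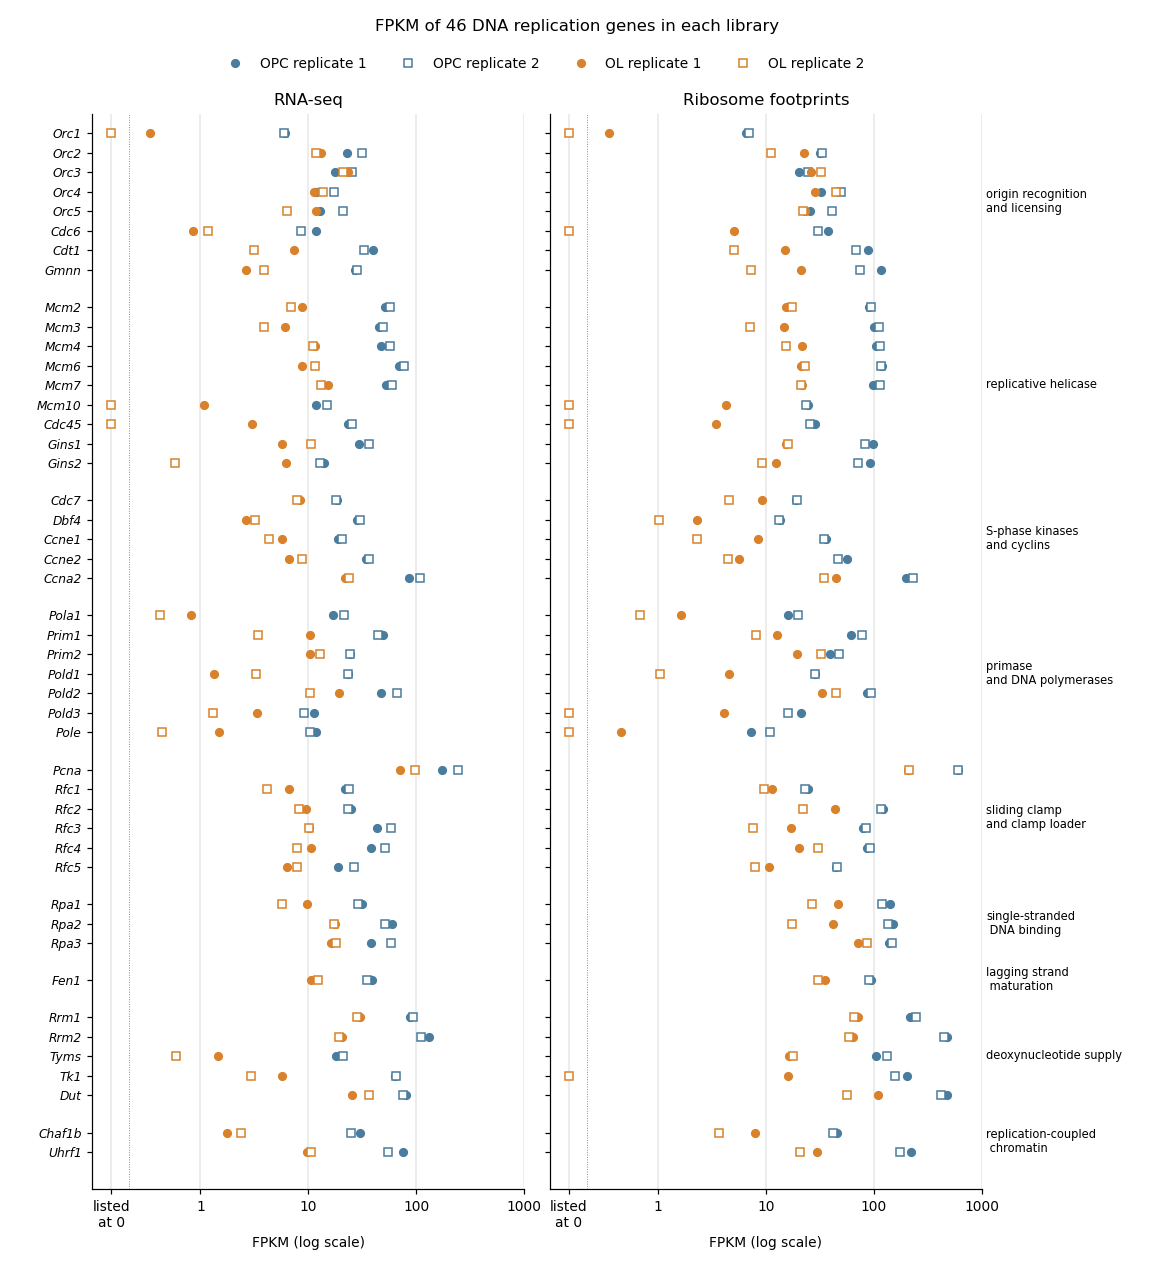
FPKM of each of the 46 DNA replication genes in the 4 RNA-seq libraries (left) and the 4 footprint libraries (right) on a log axis, with genes grouped by role, OPC in blue and OL in orange, circles for replicate 1 and open squares for replicate 2, and values listed at 0 set apart at the left edge. The OL points lie to the left of the OPC points for all genes except Orc3 and Orc4.

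Among the origin recognition and licensing factors, 5 of 8 genes fell in RNA-seq and 3 of 8 in footprints, and this group held the genes with the smallest differences. Orc1, the largest subunit of the origin recognition complex, was at 6.07 and 5.99 FPKM in OPC RNA-seq and at 0.339 FPKM and listed at 0 in OL. Its footprints were 6.5 and 6.95 FPKM in OPC and 0.349 FPKM and 0 in OL. Both OL libraries were below both OPC libraries in each assay, with a log2 fold change of -4.87 ± 0.88 (SE, adjusted p = 0.0112) in RNA-seq and -5.01 ± 1.15 (adjusted p = 0.0485) in footprints, sizes that depend on the pseudocount where a value is listed at 0. Without OL replicate 2 they were -3.80 and -3.93. Over the alternatives the adjusted p ran from 0.00217 to 0.118 in RNA-seq and from 0.00889 to 0.279 in footprints.

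The other listed subunits of that complex had smaller differences, and only Orc2 among them passed the test. Orc2 fell in RNA-seq, from 22.9 and 31.3 to 13 and 11.7 FPKM (log2 fold change -1.11 ± 0.23, adjusted p = 0.0175), and its footprints were 31.8 and 33 FPKM in OPC and 22.4 and 11.1 FPKM in OL (adjusted p = 0.147). Orc3 was at 17.7 and 25.5 FPKM in OPC and 23.2 and 21 FPKM in OL RNA-seq, and at 20.4 and 24.3 FPKM against 26.1 and 32.3 FPKM in footprints. Its groups overlapped in RNA-seq, and in footprints both OL values were above both OPC values without passing the test (log2 fold change 0.38 ± 0.23, adjusted p = 0.288), as was so for 31.8% of all tested transcripts. Orc4 overlapped in both assays, with 11.8 and 17.3 FPKM in OPC and 11.3 and 13.7 FPKM in OL RNA-seq. Orc5 was at 12.9 and 20.9 FPKM in OPC and 11.7 and 6.35 FPKM in OL, lower in both OL libraries without passing the test (log2 fold change -0.92 ± 0.39, adjusted p = 0.12). The difference between Orc1 and the other subunits was not tested.

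The factors that load the helicase, and their inhibitor, had larger log2 differences than Orc2, Orc3, Orc4 and Orc5. Cdc6, a loader of the Mcm ring, fell from 11.9 and 8.53 FPKM in OPC to 0.852 and 1.17 FPKM in OL RNA-seq (log2 fold change -3.21 ± 0.40, adjusted p = 0.00387). Its footprints were 37.5 and 30.2 FPKM in OPC and 5.07 FPKM and 0 in OL, and did not pass the test (adjusted p = 0.134, range over the alternatives 0.00882 to 0.46). Without OL replicate 2 the footprint log2 fold change of Cdc6 was -2.70. Its partner Cdt1 fell in both assays, from 40 and 33.1 to 7.31 and 3.16 FPKM in RNA-seq, and so did Gmnn (geminin), the inhibitor of Cdt1, from 27.3 and 28.2 to 2.67 and 3.86 FPKM.

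All 9 genes of the replicative helicase were lower in both OL libraries than in both OPC libraries in each assay, 8 fell in RNA-seq and 7 in footprints. The ring subunits Mcm2, Mcm3, Mcm4, Mcm6 and Mcm7 fell in both assays, and lay between 45.5 and 76.7 FPKM in OPC and between 3.93 and 15.1 FPKM in OL RNA-seq. Their log2 fold changes ran from -3.25 (Mcm3) to -1.98 (Mcm7) in RNA-seq and from -3.36 (Mcm3) to -2.29 (Mcm7) in footprints, so the same 2 subunits stood at the ends of the range in each assay.

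Of the factors that join the ring to make it an active helicase, Cdc45 and Mcm10 were at most at 3.01 FPKM in OL RNA-seq. Cdc45, a fixed part of the moving helicase, was at 23.5 and 25.2 FPKM in OPC and at 3.01 FPKM and 0 in OL RNA-seq (log2 fold change -5.45 ± 1.49, adjusted p = 0.0385), and at 28.5 and 25.7 FPKM against 3.47 FPKM and 0 in footprints (adjusted p = 0.113). Mcm10, which helps to start the helicase, was at 11.7 and 14.8 FPKM in OPC and at 1.07 FPKM and 0 in OL RNA-seq (log2 fold change -5.28 ± 1.14, adjusted p = 0.0191), and at 24.7 and 23.5 FPKM against 4.24 FPKM and 0 in footprints (adjusted p = 0.141). Both are therefore listed at 0 in RNA-seq and in footprints of OL replicate 2. Without that culture the RNA-seq log2 fold changes were -2.97 for Cdc45 and -3.50 for Mcm10, and the footprint ones -2.93 and -2.48. Over the alternatives the RNA-seq adjusted p ran from 0.00487 to 0.248 for Cdc45 and from 0.00205 to 0.181 for Mcm10. In footprints it ran from 0.00882 to 0.434 for Cdc45 and from 0.00882 to 0.473 for Mcm10.

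Of the GINS complex, which completes the helicase, Gins1 fell in both assays, from 29.3 and 36.7 to 5.69 and 10.7 FPKM in RNA-seq. Gins2 was at 14 and 12.8 FPKM in OPC and 6.17 and 0.579 FPKM in OL RNA-seq, lower in both OL libraries but far apart between them (log2 fold change -2.71 ± 0.99, adjusted p = 0.0833, and 0.0149 with the paired cultures as a block, range over the alternatives 0.00547 to 0.333). Its footprints fell from 91.6 and 71.5 to 12.3 and 9.12 FPKM (log2 fold change -2.92 ± 0.25, adjusted p = 0.00767).

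All 5 genes of the S-phase kinases and cyclins fell in RNA-seq, and 3 fell in footprints. Dbf4, the activating subunit of the Cdc7 kinase that fires origins, had the largest RNA-seq difference of them, from 28.3 and 30.3 to 2.64 and 3.2 FPKM (log2 fold change -3.29 ± 0.25, adjusted p = 9.54e-04). Its footprints went from 13.5 and 13.3 to 2.3 and 1.03 FPKM (log2 fold change -3.04 ± 0.60, adjusted p = 0.0356, and 0.0637 with the block, range over the alternatives 0.00315 to 0.281). The kinase itself, Cdc7, fell less, from 18.5 and 18 to 8.32 and 7.81 FPKM in RNA-seq (log2 fold change -1.17 ± 0.21, adjusted p = 0.0113), and its footprints were 19.1 and 19.5 FPKM in OPC and 9.14 and 4.56 FPKM in OL (adjusted p = 0.08). Cdc7 thus kept 44.2% of its OPC level in RNA-seq and Dbf4 9.97%, a difference between genes that was not tested.

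Cyclins E and A activate Cdk2 at the start of S phase and within it. Ccne2 fell from 34.2 and 36.5 to 6.68 and 8.7 FPKM in RNA-seq (log2 fold change -2.20 ± 0.22, adjusted p = 0.00215) and from 56 and 46.1 to 5.67 and 4.5 FPKM in footprints (log2 fold change -3.30 ± 0.28, adjusted p = 0.00728). Ccne1 fell from 19 and 20.5 to 5.68 and 4.31 FPKM in RNA-seq, and its footprints, at 35.7 and 34.5 FPKM in OPC and 8.45 and 2.3 FPKM in OL, did not pass the test (adjusted p = 0.0514). The cyclin E genes thus stood at most at 8.7 FPKM in OL RNA-seq. Ccna2, which was above both cyclin E genes in every RNA-seq and footprint library, fell from 86.3 and 108 to 22.1 and 23.6 FPKM in RNA-seq and from 200 and 233 to 44.2 and 34.3 FPKM in footprints.

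Primase and the DNA polymerases fell in RNA-seq for all 7 genes and in footprints for 5. Pola1, the catalytic subunit of polymerase alpha, fell from 16.8 and 21.6 to 0.826 and 0.427 FPKM in RNA-seq (log2 fold change -4.77 ± 0.43, adjusted p = 0.00154) and from 16.1 and 19.8 to 1.65 and 0.682 FPKM in footprints (log2 fold change -3.94 ± 0.63, adjusted p = 0.0224). It kept 3.27% of its OPC level in RNA-seq, the smallest share among the genes with no value at 0. Pole, the catalytic subunit of the leading strand polymerase, fell from 11.9 and 10.3 to 1.5 and 0.443 FPKM in RNA-seq (log2 fold change -3.59 ± 0.59, adjusted p = 0.00826). Its footprints were 7.26 and 10.9 FPKM in OPC and 0.457 FPKM and 0 in OL (adjusted p = 0.0479, and 0.0856 with the block, range over the alternatives 0.00828 to 0.297). Without OL replicate 2 the footprint log2 fold change of Pole was -4.01, beside -5.25 with it. Pola1 and Pole were thus both at most at 1.5 FPKM in OL RNA-seq, against at least 10.3 FPKM in OPC.

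The subunits of polymerase delta all fell in RNA-seq, and kept different shares of their OPC level. Pold1, its catalytic subunit, fell from 23.2 and 23.4 to 1.34 and 3.28 FPKM in RNA-seq and kept 9.93% of its OPC level, while Pold2, its second subunit, fell from 47.3 and 66 to 19.2 and 10.4 FPKM and kept 26%. Pold3, an accessory subunit, fell from 11.2 and 9.2 to 3.34 and 1.32 FPKM in RNA-seq (log2 fold change -2.22 ± 0.49, adjusted p = 0.0205). Its footprints were 21 and 16 FPKM in OPC and 4.08 FPKM and 0 in OL (adjusted p = 0.161, range over the alternatives 0.00882 to 0.499). Without OL replicate 2 the footprint log2 fold change of Pold3 was -2.14, beside -4.83 with it. Of primase, the catalytic Prim1 fell from 49.1 and 44.5 to 10.3 and 3.41 FPKM in RNA-seq. Prim2, its regulatory subunit, fell from 24.3 and 24.4 to 10.4 and 12.8 FPKM (log2 fold change -1.07 ± 0.21, adjusted p = 0.0138), and had 39 and 47.4 FPKM of footprints in OPC and 19.5 and 32.6 FPKM in OL (adjusted p = 0.167). Prim2 was the polymerase gene with the largest share of its OPC level left, 47.6% in RNA-seq and 60.4% in footprints.

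The sliding clamp and its loader, and the single-stranded DNA binding proteins, fell in full in both assays, 6 of 6 and 3 of 3 genes. Pcna, the ring that holds polymerases on DNA, was the most abundant of the 46 genes, at 175 and 246 FPKM in OPC and 71.4 and 96.7 FPKM in OL RNA-seq, and it kept 40% of its OPC level (log2 fold change -1.32 ± 0.24, adjusted p = 0.0109). Its footprints fell from 605 and 601 to 209 and 214 FPKM (log2 fold change -1.51 ± 0.10, adjusted p = 0.0052). Of the clamp loader, Rfc3 fell from 43.2 and 58.6 to 10.1 and 10.2 FPKM in RNA-seq (log2 fold change -2.30 ± 0.22, adjusted p = 0.00173) and from 80.2 and 85 to 17.1 and 7.59 FPKM in footprints (log2 fold change -2.85 ± 0.44, adjusted p = 0.0208).

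Rfc4 fell from 38.3 and 51.1 to 10.6 and 7.94 FPKM in RNA-seq (log2 fold change -2.25 ± 0.25, adjusted p = 0.00271) and from 86.4 and 91.8 to 20.2 and 30.5 FPKM in footprints (log2 fold change -1.84 ± 0.25, adjusted p = 0.0161). The other loader genes, Rfc1, Rfc2 and Rfc5, kept between 23.6% and 36.8% of their OPC level in RNA-seq. Of the loader, only Rfc1 had a footprint call that changed with the block (adjusted p = 0.0435, and 0.0842 with the block, range over the alternatives 0.0225 to 0.273). Rpa1, the large subunit of replication protein A, fell from 31.2 and 28.8 to 9.64 and 5.76 FPKM in RNA-seq (log2 fold change -1.99 ± 0.29, adjusted p = 0.00595) and from 140 and 119 to 46.1 and 26.9 FPKM in footprints (log2 fold change -1.87 ± 0.31, adjusted p = 0.0236). Rpa2 fell from 59.7 and 51.1 to 17.7 and 17.4 FPKM in RNA-seq (log2 fold change -1.65 ± 0.17, adjusted p = 0.00248) and from 151 and 136 to 42.1 and 17.3 FPKM in footprints (log2 fold change -2.40 ± 0.47, adjusted p = 0.0343). The cell types did not overlap for any of the 3 subunits, and Rpa3 fell from 37.9 and 58.4 to 16.3 and 18.2 FPKM in RNA-seq. Fen1, the nuclease that trims flaps between Okazaki fragments, fell from 39.2 and 35.3 to 10.6 and 12.4 FPKM in RNA-seq (log2 fold change -1.69 ± 0.19, adjusted p = 0.00303) and from 93.8 and 90.1 to 35.2 and 30.2 FPKM in footprints (log2 fold change -1.49 ± 0.15, adjusted p = 0.00956).

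Enzymes of deoxynucleotide supply fell for 5 of 5 genes in RNA-seq and 4 of 5 in footprints. Tyms, which makes thymidylate, fell from 18.1 and 20.8 to 1.46 and 0.596 FPKM in RNA-seq (log2 fold change -4.22 ± 0.47, adjusted p = 0.00271) and from 104 and 133 to 16.4 and 17.8 FPKM in footprints (log2 fold change -2.77 ± 0.19, adjusted p = 0.00571). Tk1, the thymidine kinase of the salvage route, fell from 63.8 and 64.8 to 5.77 and 2.92 FPKM in RNA-seq (log2 fold change -3.93 ± 0.34, adjusted p = 0.00136). Its footprints were 203 and 156 FPKM in OPC and 16.1 FPKM and 0 in OL (adjusted p = 0.13). The OL footprint libraries were thus far apart for Tk1. Without OL replicate 2 the footprint log2 fold change of Tk1 was -3.45, and over the alternatives the adjusted p ran from 0.00882 to 0.448.

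Rrm1 and Rrm2, the subunits of ribonucleotide reductase, both fell, but Rrm1 kept 32.4% of its OPC level in RNA-seq and 29.2% in footprints, and Rrm2, the subunit whose level follows S phase, 16.4% and 13.3%. Dut, which removes dUTP, fell from 80.4 and 74.7 to 25.6 and 36.3 FPKM in RNA-seq (log2 fold change -1.34 ± 0.21, adjusted p = 0.00738) and from 477 and 416 to 109 and 55.9 FPKM in footprints (log2 fold change -2.51 ± 0.36, adjusted p = 0.0178). Of the chromatin proteins, Chaf1b, a subunit of the histone chaperone at the fork, fell from 29.9 and 24.9 to 1.78 and 2.39 FPKM in RNA-seq (log2 fold change -3.66 ± 0.29, adjusted p = 0.00112) and from 46 and 42.3 to 7.88 and 3.69 FPKM in footprints (log2 fold change -3.01 ± 0.44, adjusted p = 0.0193). Uhrf1, which carries DNA methylation through replication, fell from 76.2 and 55.3 to 9.82 and 10.6 FPKM in RNA-seq (log2 fold change -2.66 ± 0.22, adjusted p = 0.00119) and from 221 and 173 to 29.7 and 20.7 FPKM in footprints (log2 fold change -2.97 ± 0.25, adjusted p = 0.00737).

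**Figure D2:**
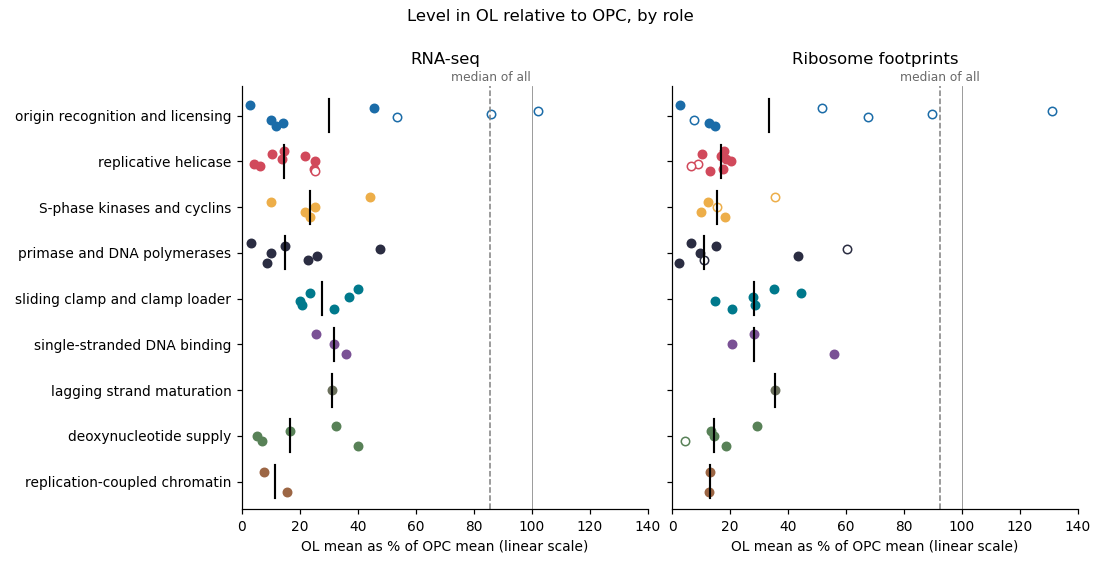
Mean OL level as a percent of the mean OPC level for each gene, by role, in RNA-seq (left) and footprints (right), with filled points for genes that passed the test, open points for those that did not, a black bar for the median of each role and a dashed line for the median of all tested transcripts (85.7% and 92.5%). Orc3 and Orc4 lie nearest to or beyond 100%, and 27 of the 46 genes lie under 25% in RNA-seq.

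Ribosome density (RD), footprint FPKM over RNA-seq FPKM of the same culture, was used to ask whether translation of these genes changed beyond their RNA. No gene passed the test of a change in RD (0 of 46 at an adjusted p under 0.05, limma interaction term over all 8 libraries), where 0.0124% of the 8056 transcripts tested did. At an unadjusted p under 0.05 there were 3 of 46, beside 4.80% of all transcripts. The median log2 change in RD was -0.14 for the replication genes and 0.10 for all transcripts, and 0.00 and 0.20 without OL replicate 2. Without OL replicate 1, so with OL replicate 2 as the only OL culture, 9 of the 46 genes were called, 8 lower and 1 higher, beside 883 of 7910 transcripts.

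The 3 genes with the smallest unadjusted p were Ccne2, Tyms and Dut. Ccne2 had an RD of 1.64 and 1.26 in OPC and 0.849 and 0.517 in OL (log2 change -1.11 ± 0.34, unadjusted p = 0.0157). The RD of Dut was 5.93 and 5.57 in OPC and 4.27 and 1.54 in OL (log2 change -1.17 ± 0.46, unadjusted p = 0.0409). In Tyms it was 5.73 and 6.38 in OPC and 11.2 and 29.9 in OL (log2 change 1.45 ± 0.56, unadjusted p = 0.0383). The 3 were picked by their p, the adjusted p was 0.875 for each, and the OL values of Tyms rest on RNA-seq values of 1.46 and 0.596 FPKM.

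**Figure D3:**
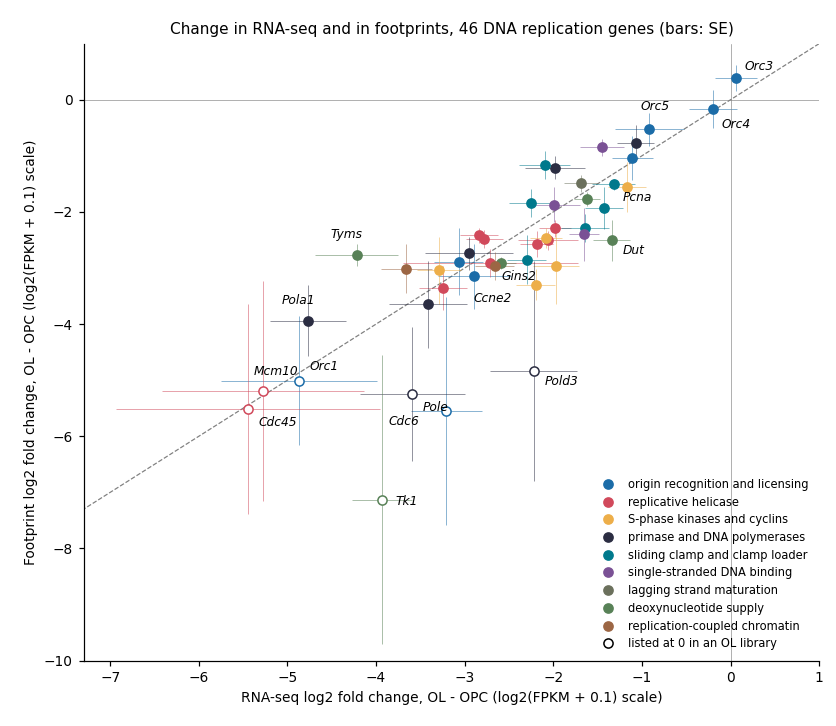
Log2 fold change of each of the 46 genes between OL and OPC in RNA-seq (horizontal) and in footprints (vertical), both on the log2(FPKM + 0.1) scale, with SE bars, colours for roles, open points for genes listed at 0 in an OL library and a dashed line where both changes are equal. Genes far below the line (Tk1, Cdc6 and Pold3) are among those listed at 0 in footprints of OL replicate 2, and 26 of the 46 genes lie below it.

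The level of RD differed widely among the replication genes. The median over the 46 genes was 2.16 and 1.93 in OPC, where the median of all transcripts was 1.72 and 1.77, and 32 and 25 of the 46 genes were above that median. In OL it was 2 and 1.9, beside 2.02 and 1.95 for all, with 22 of 46 and 19 of 39 genes above, since 7 genes had footprints listed at 0 in OL replicate 2. Dbf4 had the lowest RD in both OPC cultures, 0.477 and 0.44, below which lay 5.09% and 4.7% of all transcripts, and it was 0.872 and 0.322 in OL. At the other end stood Gins2, with 6.53 and 5.58 in OPC and 1.99 and 15.8 in OL, and Tyms. The 15.8 of Gins2 rests on an RNA-seq value of 0.579 FPKM. Rpa1 was high in all 4 cultures, with 4.49 and 4.13 in OPC and 4.78 and 4.67 in OL, and Pole was low in those that gave a value, with 0.607 and 1.06 in OPC and 0.305 in OL replicate 1. RD sets footprints over the coding sequence against RNA-seq over the whole transcript. Annotated transcript and coding lengths were 3900 and 558 bases for Gins2, 3163 and 924 for Tyms, and 5077 and 1872 for Rpa1. For Dbf4 they were 2402 and 1992 bases, and for Pole 7163 and 6852. The part of these lengths in the level of RD was not tested.

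**Figure D4:**
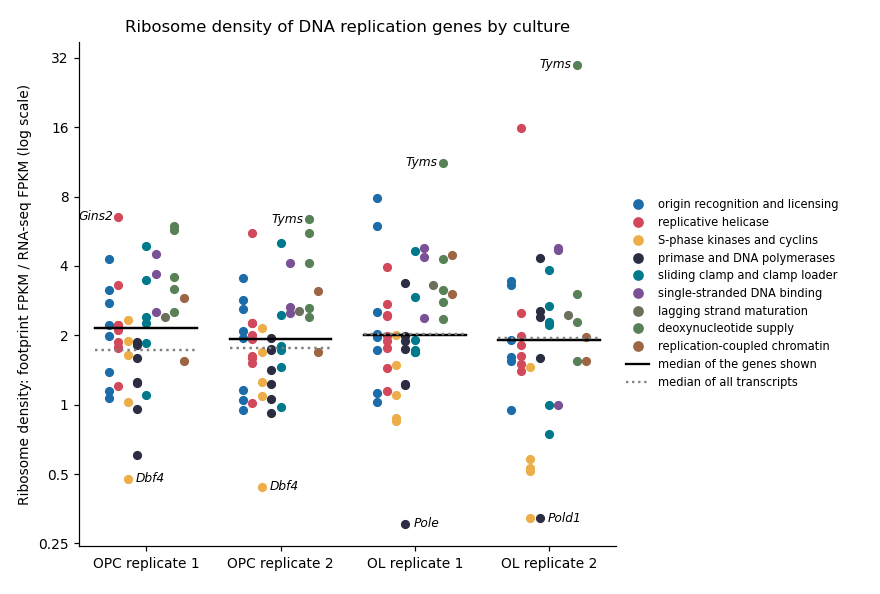
Ribosome density (footprint FPKM over RNA-seq FPKM, log axis) of the replication genes in each of the 4 cultures, coloured by role, with the median of the genes shown (black) and of all transcripts (dotted). The black median lies above the dotted line in both OPC cultures (2.16 and 1.93 against 1.72 and 1.77) and close to it in both OL cultures, and the lowest and highest gene of each culture are named.

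The coding sequences were also described, by codon shares that the rule did not use. The AAA share of lysine codons had a median of 0.431, beside 0.368 over 10954 listed transcripts with lysine codons, and ranged from 0.148 (Cdt1) to 0.667 (Orc4). For the UUU share of phenylalanine codons the median was 0.522, beside 0.429 over 10940, with a range from 0.167 (Cdt1) to 0.826 (Orc4 and Dbf4). The UUU shares of the genes had quartiles of 0.429 and 0.622, beside 0.304 and 0.565 for all listed transcripts. Their AAA shares had quartiles of 0.273 and 0.526, beside 0.25 and 0.5. Their coding sequences had a median of 1464 bases (all listed transcripts: 1377) and their transcripts a median of 12 exons (all: 8), and they lay on 16 chromosomes with at most 10 on the same one. For 14 genes an exon overlaps a gene on the opposite strand and for 2 (Orc5 and Rpa1) a gene on the same strand. The authors' code names no strand option, so some reads of such pairs may not be told apart. The overlaps were taken over whole exons, and not over the coding sequences on which footprints were counted. The 14 are Orc1, Orc2, Orc4, Mcm7, Cdc45, Gins2, Ccne2, Ccna2, Pole, Rfc2, Rfc4, Rfc5, Fen1 and Tk1.

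Other genes of replication and its control moved mostly the same way. From a list of 98 such genes, 72 were listed. In RNA-seq 46 fell and 2 rose (20.2% and 13.0% of all tested transcripts), and in footprints 26 fell and 1 rose (10.8% and 12.8%), by the fits described above. By group, 7 of 8 origin firing and fork factors fell in RNA-seq, 8 of 9 histone chaperones and DNA methylation genes, 4 of 4 alternative clamp loaders, 5 of 6 ubiquitin ligase genes that control licensing, 5 of 7 genes of nucleotide metabolism and 7 of 14 E2F, RB and MYB factors. Of flap removal enzymes and topoisomerases 2 of 6 fell, of checkpoint genes 1 of 4, of translesion and accessory polymerase genes 3 of 5, and of G1 cyclins, their kinases and CDK inhibitors 4 of 9.

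Among the RNA-seq falls of these other genes, Dscc1, part of an alternative clamp loader, was at 13.3 and 8.38 FPKM in OPC and listed at 0 in both OL libraries. E2f1, an activator of replication genes, went from 7.96 and 8.79 FPKM to 0.621 FPKM and 0 (log2 fold change -4.98 ± 0.99, adjusted p = 0.015), and Dna2, a flap nuclease, from 9.95 and 6.91 to 0.306 and 0.165 FPKM (log2 fold change -4.68 ± 0.56, adjusted p = 0.00337). Only Cdkn1c and Rbl2 rose. Cdkn1c, the CDK inhibitor p57, rose from 2.13 and 2.45 to 14.3 and 16.8 FPKM in RNA-seq (log2 fold change 2.71 ± 0.29, adjusted p = 0.0025) and from 12.8 and 7.41 to 79.1 and 77.2 FPKM in footprints (log2 fold change 2.99 ± 0.32, adjusted p = 0.0108). Rbl2, the RB relative p130, rose in RNA-seq from 5.76 and 4.04 to 12.9 and 11 FPKM (log2 fold change 1.29 ± 0.30, adjusted p = 0.0232). Its footprints, at 3.55 and 4.72 FPKM in OPC and 11.3 and 8.13 FPKM in OL, had a log2 fold change of 1.21 ± 0.45 that did not pass the test (adjusted p = 0.137).

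The deepest called falls in footprints of the other genes were those of Ccnd2, Shmt1 and Mms22l. Ccnd2, the G1 cyclin D2, fell from 571 and 675 to 56 and 20.7 FPKM (log2 fold change -4.18 ± 0.52, adjusted p = 0.0137) and in RNA-seq from 157 and 168 to 10.1 and 6.97 FPKM (log2 fold change -4.26 ± 0.22, adjusted p = 4.07e-04). Shmt1, an enzyme of the thymidylate cycle, fell from 57.3 and 76.1 to 9.54 and 2.5 FPKM of footprints, and Mms22l, a fork repair factor, from 9.92 and 12.8 to 1.14 and 0.544 FPKM. The kinase Cdk4 and the topoisomerase Top1, in contrast, were at 340 and 270 FPKM and at 63.1 and 62.5 FPKM in OPC RNA-seq and at 237 and 235 FPKM and 58.9 and 58.6 FPKM in OL, and neither passed the test (adjusted p = 0.156 and 0.64). These last 2 genes were chosen after their values were seen.

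**Figure D5:**
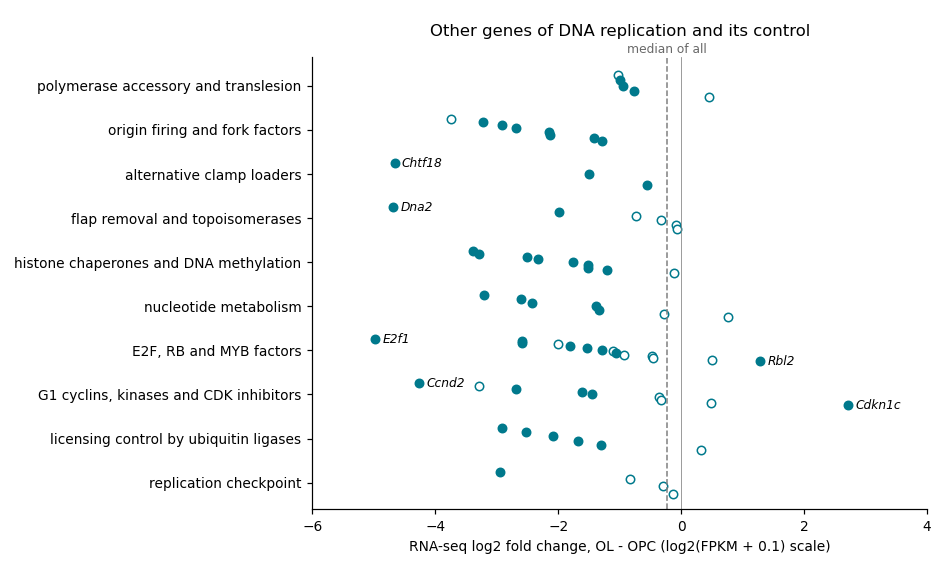
RNA-seq log2 fold change between OL and OPC of the other genes of replication and its control, by group, with filled points for genes that passed the test, open points for those that did not and a dashed line at the median of all tested transcripts (-0.23). Cdkn1c and Rbl2 are the only filled points to the right of 0, and Dscc1, listed at 0 in both OL libraries, is left out.

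Markers of other cells were counted beside these results. Summed over the 5 listed of 7 astrocyte markers, RNA-seq gave 244 and 183 FPKM in OPC and 977 and 860 FPKM in OL. Aldoc made up most of the OPC sum (209 and 159 FPKM) and S100b most of the OL sum (675 and 633 FPKM, against 20.6 and 12.6 FPKM in OPC), while Gfap was at 0.155 FPKM and 0 in OPC and 14.2 and 2.11 FPKM in OL. The 6 neuron markers summed to 132 and 118 FPKM in OPC and 186 and 200 FPKM in OL RNA-seq. Map2 made up most of that sum, with 102 and 95.7 FPKM in OPC and 117 and 124 FPKM in OL. Tubb3 rose from 18.5 and 12.3 to 40.5 and 42.3 FPKM, and Dcx from 8.17 and 6.46 to 24.9 and 27.9 FPKM. Rbfox3, Snap25 and Syt1 were at most at 3.19 FPKM in any RNA-seq library. The 2 listed microglia markers summed to at most 0.209 FPKM in any RNA-seq library. The 5 listed of 6 pluripotent and neural stem cell markers summed to 271 and 243 FPKM in OPC and 247 and 267 FPKM in OL RNA-seq, nearly all of it from Nes and Sox2. Nes, an intermediate filament gene of neural progenitors, fell from 124 and 111 to 15.9 and 17.9 FPKM (log2 fold change -2.80 ± 0.17, adjusted p = 5.32e-04), and Sox2, a transcription factor of the same cells, rose from 146 and 131 to 231 and 249 FPKM (log2 fold change 0.79 ± 0.15, adjusted p = 0.0125). These sums are of FPKM and do not count cells. Whether other cells had a part in the lower level of the replication genes was not tested.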

How the data were processed

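Footprints and total RNA were sequenced from 2 OPC and 2 OL cultures, and libraries were grouped by cell type and kind as labelled. The authors deposited FPKM values, whole transcript for RNA-seq and coding sequence for footprints. Adapters were trimmed (reads of at least 18 nucleotides kept), reads mapped to GRCm38 (mm10) with HISAT2 2.1.0 and FPKM tabulated with StringTie 1.3.5 for canonical transcripts of Gencode vM9, from the study's methods and the submitters' processing notes. Positions and codons came from Gencode vM21, which held each of the 10987 listed transcripts.

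FPKM were used as deposited. RNA-seq and footprints were fitted apart with limma 3.58.1 (R 4.3.3, eBayes with trend) on log2(FPKM + 0.1), keeping transcripts whose mean reached 1 FPKM, with two-sided tests, Benjamini-Hochberg adjustment over all tested transcripts and a threshold of 0.05. Adding 0.1 understates the change of low genes with all values above 0; where 1 library is listed at 0, the fitted change can exceed the ratio of the means. The study's count test could not be repeated from FPKM. The change in RD was the interaction over all 8 libraries. The tests were tested on simulated data. The study's methods pair its OL cultures with OPC replicates by origin, and same-numbered cultures were taken here as the pairs. The deviations of same-numbered cultures correlated at 0.108 (8346 transcripts, RNA-seq) and 0.086 (8342, footprints). P-values measure the spread between these cultures.

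Genes given in full are the 2 largest RNA-seq changes of each role, the 3 smallest p in RD, those called in a single assay and those listed at 0, and, of other pathway genes, the 3 largest called falls and rises of each fit. Members and lists were chosen with earlier results of these data known. Alternatives were the pseudocount, minimum, scaling, trend, replicate block, a joint fit, RD per culture and leaving out each culture.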

Additional observations from a re-analysis of the deposited data

How the results depend on the processing

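The direction of the median change of the replication genes was negative in RNA-seq and footprints under every alternative run. With all libraries kept, between 35 and 43 of the genes fell in RNA-seq and between 20 and 38 in footprints, the lowest footprint count being that without a variance trend (20). Leaving out a culture gave 9 to 42 genes lower in RNA-seq and 0 to 42 in footprints, with 15 and 9 in RNA-seq and 0 and 0 in footprints without OPC replicates 1 and 2, where the spread comes from the OL pair alone and the lone OPC library is assumed to vary like it. Leaving out OL replicate 1 or 2 leaves the OPC pair alone to set the spread, with the lone OL library assumed to vary like it. With each culture left out in turn, median log2 changes ran from -2.43 to -2.07 in RNA-seq and from -2.90 to -2.28 in footprints. In RD they ran from -0.35 to 0.00. Of the 42 genes called in RNA-seq, 35 were called in every setting with all libraries that tested them and 9 when leaving out a culture is included, and of the 34 in footprints 18 and 0. Orc1, one of the 35, was not tested in RNA-seq at a minimum mean of 5 FPKM.

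Median-ratio scaling of the libraries moved the median of all transcripts in RNA-seq from -0.23 to -0.05 and the share of calls that were higher from 39.1% to 51.5%, and the difference of the replication genes from that median was -1.98 both before and after, with 42 genes lower. With the paired cultures as a replicate block, 43 genes fell in RNA-seq, 30 in footprints and 0 changed in RD. The block changed no other call of a replication gene than those of Gins2 in RNA-seq and Orc1, Dbf4, Pole and Rfc1 in footprints (Orc1: adjusted p = 0.0891, range over the alternatives 0.00889 to 0.279). Leaving out a culture in turn, Orc3 ran from -0.21 to 0.32 in RNA-seq, below 0 without OPC replicate 1 (-0.21) and OL replicate 1 (-0.02). Orc4 ran from -0.47 to 0.08 in RNA-seq, above 0 without OPC replicate 2, and from -0.50 to 0.17 in footprints, above 0 without OPC replicate 2 (0.13) and OL replicate 1 (0.17). Neither gene was called there. Precision is lowest for the genes listed at 0, whose fold depends on the pseudocount.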
